A study of Mus musculus with 3 samples.

Results

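Basonuclin 1 (BNC1) is a zinc finger transcription factor found in basal keratinocytes and in germ cells, including oocytes. The study mapped its binding in the mouse ovary by chromatin immunoprecipitation with sequencing (ChIP-seq). Described here are the BNC1 peaks that were richest in sequenced tags while lying away from H3K4me3, a histone mark found mainly at active promoters. Members were chosen by tag number and distance, as the BNC1 peaks on chromosomes 1 to 19 and X with at least 11 tags whose edge was more than 10000 bp from the nearest H3K4me3 peak. They numbered 329, out of 2558 BNC1 peaks on these chromosomes and 2578 in the whole list. They were compared with the 1975 low-tag peaks of 8 to 10 tags at the same distance.

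The series had 3 libraries, each made from the ovary of wild-type C57BL/6 J mice at 8 weeks of age. They were 1 immunoprecipitation with a BNC1 antibody, 1 with an H3K4me3 antibody (Abcam) and 1 input without antibody. The title of the BNC1 library calls it treated, but its other labels name no treatment. How many animals gave each library is not stated in the labels. The labels and the study's methods name different suppliers of the BNC1 antibody, Huaan and ThermoFisher, so it is not certain which one was used. Peak lists carry no expression, so the labelled tissue could not be checked by its marker genes. Peak lists of the BNC1 and H3K4me3 libraries were analysed, whereas no list of the input was analysed here. With 1 library per antibody there are no replicates and no test between conditions. The intervals below are 95% intervals that cover counting error only, and neighbouring peaks are not independent. Total library depth is unknown, and the tags inside peaks are the only depth the lists show.

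A transcription factor bound at a site gives a compact pile of tags over a background set by the surrounding chromatin. Distal sites, away from promoters, commonly include enhancers, which carry other histone marks than H3K4me3. Whole ovary holds oocytes together with many more somatic cells, so a site bound in oocytes alone would be diluted. In any ChIP-seq library, tags can also pile up without binding at repeats that the assembly holds in too few copies, such as satellite repeats near centromeres. Mouse centromeres lie at the coordinate start of each chromosome. Positions are those of the deposited lists, for which the submitters' processing notes name mm9. The underlying sequences and the genes at these positions are not given, because neither was at hand for that build.

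The tag rule picked 14.3% of the 2304 distal BNC1 peaks (Wilson interval 12.9 to 15.8%). Among the 254 BNC1 peaks within 10 kb of H3K4me3, the same tag number was reached by 20.5%, or 52 peaks. The share of tag-rich peaks was thus not higher away from H3K4me3 than near it. The 329 members held 11656 tags, which was 37.4% of the 31195 tags in BNC1 peaks on these chromosomes. The median member held 13 tags (interquartile range 11 to 19), and the highest held 984. The tag numbers chose the members and are given as a description only.

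The limit of 11 tags did not fall at a break in the list. The 99 members with exactly 11 tags had a median width of 185 bp and a median fold enrichment of 8.49, where fold enrichment is the deposited ratio of a peak to its expected background. The 228 distal peaks with exactly 10 tags had a median width of 170 bp and a median fold enrichment of 8.83. The highest fold enrichment just inside the limit was 13.39, at an 11-tag peak on chromosome 10 (93134415 to 93134635). The highest just outside it was 15.06, at a 10-tag peak on chromosome 8 (46214362 to 46214495). At the distance limit, the nearest member lay 10869 bp from H3K4me3, and the farthest tag-rich peak inside the limit lay 9286 bp away.

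The members fell into separate kinds by tag density. Tags per kb of peak ran from 46.4 to 990, and between 139 and 277 no member was found. To separate the kinds, a background index was used, which is tags per kb divided by fold enrichment. It is only a rough guide to the background expected by the caller, because it also varies with peak width and tag number. At 11.71-fold, it was 3.96 in an 11-tag member 237 bp wide and 5.82 in a 12-tag member 176 bp wide. Of the members, 55 had an index over 3 times the list median of 6.64 and are called tag-dense, all but 1 of them above that gap, a share of 16.7% (Wilson interval 13.1 to 21.1%) against 2.19% of all BNC1 peaks on these chromosomes. The lowest tag-dense index was 23.8, and the highest among the other 274 members was 17.8. None of the 1975 low-tag peaks passed this limit, which allows a share of up to 0.194% by the Wilson interval. Because the index contains the tag number, that difference follows in part from the rule.

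The tag-dense members held most of the tags. Their 7867 tags made up 67.5% of the tags of all members, at a median of 91 tags per peak and 526 tags per kb. The other 274 members held 3789 tags, at a median of 12 tags per peak and 62.2 tags per kb. The low-tag peaks had a median of 55.9 tags per kb. The remaining members were thus close to the low-tag peaks in density, and 272 of the 274 lay within the low-tag range of 46.3 to 104 tags per kb. The 2 above it, singled out after their values were seen, were on chromosome 4 (64159033 to 64159154), with 123 tags per kb, and on chromosome 5, with 504, the peak of highest fold enrichment.

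**Figure D1:**
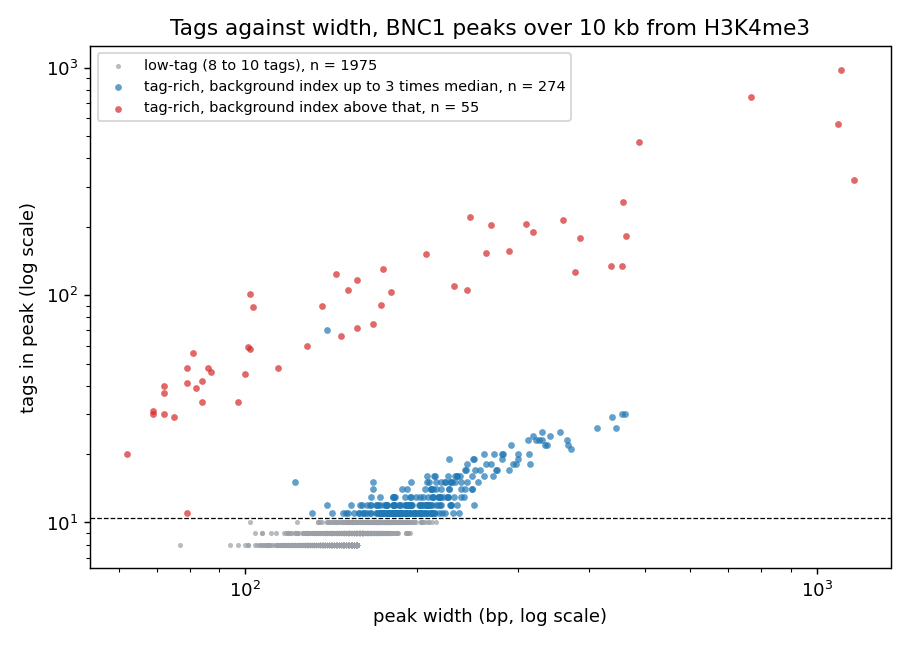
Number of tags (log scale) against peak width in bp (log scale) for distal BNC1 peaks. Grey points are the 1975 low-tag peaks, blue points the 274 members of ordinary background index and red points the 55 tag-dense members, and the dashed line marks the tag limit. Blue points mostly continue the low-tag band toward larger widths, whereas red points lie above that band. The blue point with 70 tags in 139 bp, on chromosome 5, also lies above it.

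Width was the next measure compared. The median member was 202 bp wide (interval of the median 194 to 208 bp) and the median low-tag peak 151 bp (150 to 151 bp), a difference of 51 bp (43 to 57.1 bp). Of the members, 113 were wider than 216 bp, the widest low-tag peak. Within 10 kb of H3K4me3, tag-rich peaks were also wider, with a median of 216 bp against 150 bp for peaks of 8 to 10 tags. A wider peak can hold more tags, so width is not independent of the rule. Once the tag-dense members were set aside, width and tags changed together in small steps. Distal peaks with 8 tags had a median width of 147 bp, those with 9 tags 156 bp, and those with 10 tags 170 bp. The medians were 185 bp at 11 tags, 194 bp at 12 tags, 213 bp at 13 to 14 tags, 239 bp at 15 to 19 tags and 330 bp at 20 to 30 tags. Over the same steps tags per kb moved only from 54.4 to 69.7. The steps leave out the member of ordinary index with 70 tags, on chromosome 5, which was 139 bp wide.

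Pooled over all chromosomes, fold enrichment was lower in the members. The median fold enrichment was 7.33 in the members (6.91 to 7.75) and 8.37 in the low-tag peaks. Across the 329 members, Spearman's rho between tags and fold enrichment was -0.62, given as a description since all points share 1 library. Among the 274 members that were not tag-dense it was -0.41. The tag-dense members had a median of 3.81-fold, and 47 of the 55 were under 5-fold, whereas 1 of the 1975 low-tag peaks was. The other 274 members had a median of 7.88-fold, and 12 of them were under 5-fold. The direction differed by chromosome. Outside chromosomes 9 and 15, members of ordinary index had a median of 9.13-fold (8.55 to 9.6) and low-tag peaks 8.37-fold, so the members were higher there, whereas on chromosomes 9 and 15 they had 6.6-fold (6.2 to 7.01) against 8.37-fold. Among low-tag peaks, whose tags range only from 8 to 10, rho between tags and fold enrichment was 0.09. Fold enrichment rests on the same tags as the rule, so its differences between members and low-tag peaks are not independent of the rule.

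**Figure D2:**
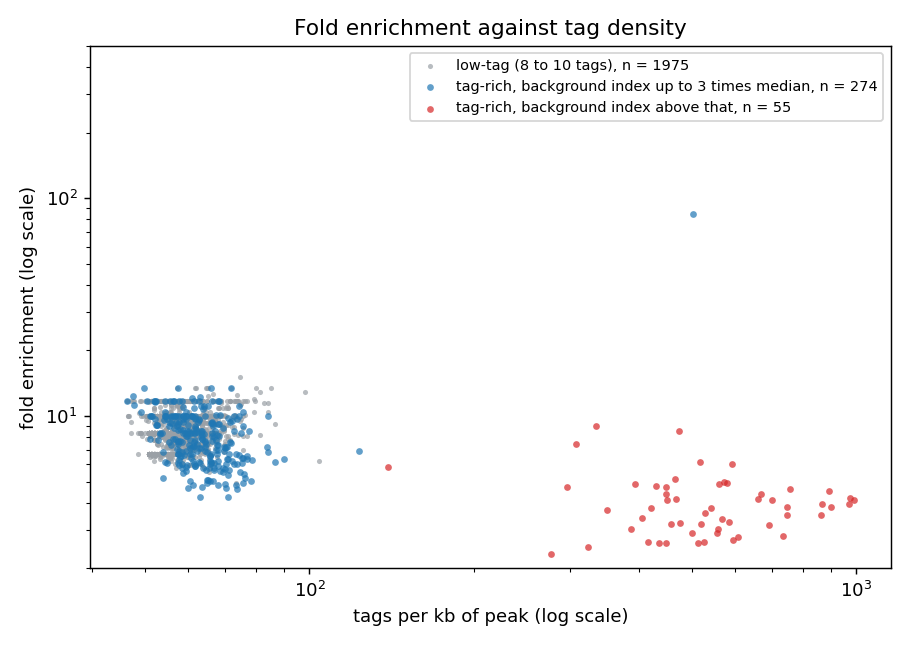
Fold enrichment (log scale) against tags per kb of peak (log scale), with low-tag peaks in grey, members of ordinary background index in blue and tag-dense members in red. The red points lie at 139 to 990 tags per kb and 2.33- to 8.98-fold, and the single blue point at 84.81-fold and 504 tags per kb stands apart from both clouds.

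The strength of the peaks, given by the authors' caller as 10 × −log10 of the p-value, overlapped widely between the sets. It had a median of 51.07 in the members and 43.03 in the low-tag peaks, and both started near 40. It reached 50 in 179 of the 329 members, or 54.4%, and in 166 of the 1975 low-tag peaks, or 8.41%. Of all BNC1 peaks on these chromosomes, 15.2% reached it. The p-value rests on the same tags as the rule, so this difference follows in part from the rule. The false discovery rate was listed at 0% for 61 members (18.5%) and for 2.58% of all BNC1 peaks on these chromosomes. Among the tag-dense members 31 of 55 were so listed, and among the other members 30 of 274.

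Many fold enrichments took one of a few values. Whole multiples of 1.673, within 0.012, accounted for 58.2% of the BNC1 peaks on these chromosomes and for 1350 of the 1975 low-tag peaks (68.4%, Wilson interval 66.3 to 70.4%). Among the members 55 did so (16.7%, 13.1 to 21.1%), and none of these was tag-dense. The most common multiple was the fifth in low-tag peaks (640 peaks, 8.37-fold) and the sixth in members (22 peaks, 10.04-fold). Fold enrichment rests on the same tags as the rule, so these differences between members and low-tag peaks are descriptions only. Members on chromosomes 9 and 15 with an ordinary background index were on such a value in 8 of 129 cases, and those on other chromosomes in 47 of 145.

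The 15 members with the most tags were all tag-dense and held 43.4% of the tags of all members. The first was on chromosome 2 from 98506391 to 98507493, where 984 tags fell in 1103 bp at 4.53-fold, with a 10 × −log10 p of 908.12. Another 3 members lay within the same 5108 bp, and the 4 together held 2113 tags. The nearest H3K4me3 peak was 2961242 bp from the first of them. These 4 members were a single tight group with no low-tag peak among them.

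Of the other members with the most tags, 3 were in the large group at the start of chromosome 9 described next. On chromosome 15, a peak from 74916390 to 74917480 held 565 tags at 6.16-fold, and its neighbour, 80 bp away, held 214 tags at 2.71-fold. A peak on chromosome 9 from 35112693 to 35113180 held 475 tags at 4.19-fold, 21084 bp from the nearest H3K4me3 peak, the shortest such distance of any tag-dense member. The widest member, on chromosome 11 from 3072678 to 3073840, held 322 tags in 1163 bp but had the lowest fold enrichment of all members, 2.33, and a 10 × −log10 p of 60.32. Both chromosome X members were tag-dense. They held 157 and 110 tags, and the second was 41728681 bp from the next BNC1 peak, farther than any other member.

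The largest group was at the coordinate start of chromosome 9. Within 38080 bp, from 3000000 to 3038079, 29 members were listed, all of them tag-dense. They held 2326 tags, which was 19.96% of the tags of all members, on 3893 bp of peaks. Tags per peak ran from 20 to 207 with a median of 60, and fold enrichment from 2.5 to 6.05 with a median of 3.39. The peaks were narrow, from 62 to 319 bp with a median of 102 bp, and the median distance to the next peak was 226 bp. No low-tag BNC1 peak was listed inside the group, and the nearest H3K4me3 peak was 1271911 bp from its last member.

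The coordinate starts of the chromosomes were therefore compared. Of the 329 members, 39 began within the first 3.5 Mb of their chromosome, a share of 11.9% (Wilson interval 8.79 to 15.8%). Of the 1975 low-tag peaks 7 did, a share of 0.354% (0.172 to 0.730%), and of all BNC1 peaks on these chromosomes 1.84%. The H3K4me3 list had 36 peaks there, or 0.363%, and none on chromosome 9. Beside the 29 members on chromosome 9, chromosomes 13 and 16 had 2 each, and chromosomes 2, 8, 11, 12, 18 and 19 had 1 each. Tag-dense peaks made up 34 of the 39. The members with an ordinary index gave 5 of 274, or 1.82% (0.782 to 4.20%). This was above the low-tag share. The 1.84% of all BNC1 peaks came from 47 peaks that include the 39 members, 34 of them tag-dense, so it is no separate base. The count of 5 is small, and 2 of the 5 lay within a span of 23574 bp on chromosome 16. All 5 were on chromosomes other than 9 and 15, where they made up 3.45% of such members (1.48 to 7.82%) against 0.339% of low-tag peaks (0.156 to 0.738%).

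Few tag-dense members had several H3K4me3 peaks nearby. The distance of 10 kb itself was part of the rule, and it was exceeded by 55 of the 56 tag-dense peaks on these chromosomes and by 2304 of all 2558 BNC1 peaks. At the wider scale, 12 of the 55 had at least 3 H3K4me3 peaks within 1 Mb, against 225 of the other 274 members and 1343 of the 1975 low-tag peaks. Of the 43 with fewer, 29 are the chromosome 9 group, so these are not independent counts.

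Spacing was compared as the edge distance to the next BNC1 peak. The median was 77939 bp for members (65387 to 111830 bp) and 257444 bp for low-tag peaks (229994 to 279763 bp). The next peak was within 100 kb for 178 of the 329 members, or 54.1% (48.7 to 59.4%), and for 541 of the low-tag peaks, or 27.4% (25.5 to 29.4%), against 31.2% of all BNC1 peaks on these chromosomes. The difference was 26.7 percentage points (20.9 to 32.4). Within 1 kb, 36 members had a neighbour and 2 low-tag peaks did, against 1.49% of all BNC1 peaks, and all 36 were tag-dense. For the 274 other members the share within 100 kb was still 48.9% (43.0 to 54.8%), and for the 145 of these on chromosomes other than 9 and 15 it was 38.6% (31.1 to 46.7%), where low-tag peaks gave 25.9% (23.9 to 28.0%).

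**Figure D3:**
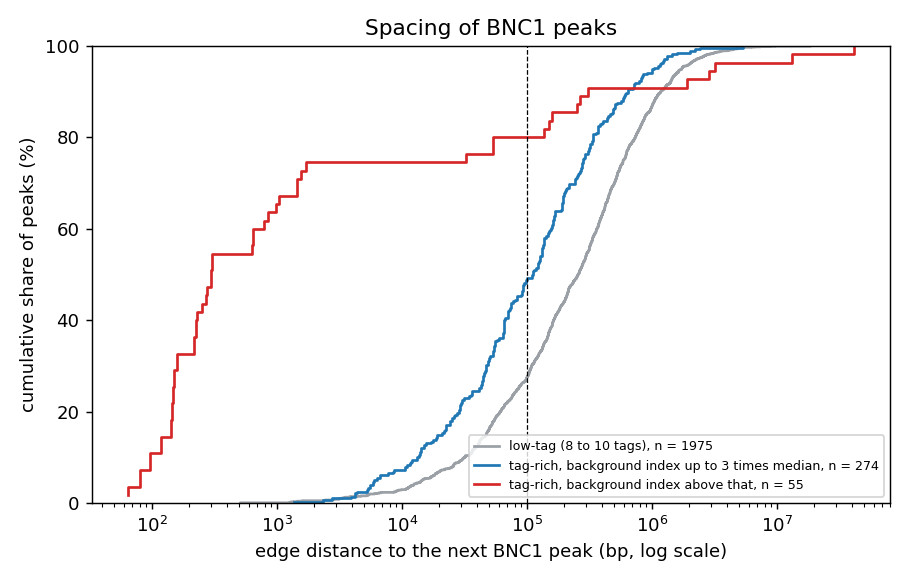
Cumulative share of peaks (%) against the edge distance to the next BNC1 peak in bp (log scale), for low-tag peaks (grey), members of ordinary background index (blue) and tag-dense members (red). The dashed line marks 100 kb, below which lie 27.4% of grey and 48.9% of blue, and 44 of the 55 red peaks.

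When members with edges within 100 kb of each other were joined, they formed 248 groups, of which 211 were single members. Only 3 groups had 5 members or more, and all 3 were on chromosome 9. After the group at the coordinate start came 8 members from 9744003 to 10100469 with 12 to 26 tags each. Then came 5 members from 11536561 to 11670866 with 12 to 25 tags. Neither of these held a tag-dense member or a low-tag peak. Inside the third, the peak from 11670537 to 11670866 had 25 tags at 10.4-fold and the other 4 had 12 to 15 tags.

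Chromosomes were compared by the share of distal peaks that were tag-rich. It was 46.9% on chromosome 9 (107 of 228, Wilson interval 40.6 to 53.4%) and 38.6% on chromosome 15 (54 of 140, 30.9 to 46.8%). Chromosome 19 came next among chromosomes 1 to 19, with 16.7% (16 of 96, 10.5 to 25.4%). On the remaining autosomes it was 3.51 to 10.7%, with intervals that overlapped one another. Chromosome X had 6 distal peaks, 2 of them tag-rich, too few to place. All told, chromosomes 9 and 15 held 161 members, or 48.9%, and without them 8.68% of distal peaks were tag-rich (7.50 to 10.01%). Chromosome 9 alone held 32.5% of the members and 6.13% of the low-tag peaks, where all BNC1 peaks gave 9.81% and all H3K4me3 peaks 5.91%. Chromosome 15 held 16.4% of the members and 4.35% of the low-tag peaks, where all BNC1 peaks gave 6.49%. The 52 tag-rich peaks within 10 kb of H3K4me3 had 17.3% on chromosome 9 and 32.7% on chromosome 15. The lean to these chromosomes was thus not particular to the distal members.

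**Figure D4:**
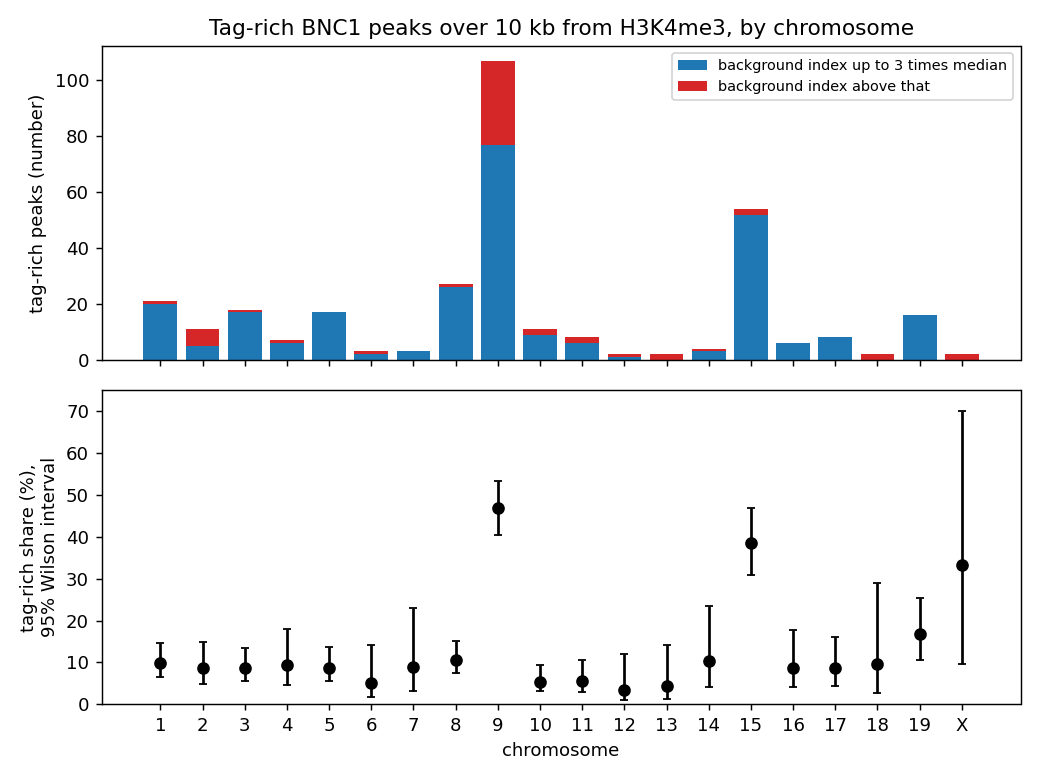
Upper panel, number of tag-rich distal BNC1 peaks on each chromosome, with tag-dense members in red and the others in blue. Lower panel, tag-rich share of distal BNC1 peaks (%) with 95% Wilson intervals as bars; chromosomes 9 (46.9%) and 15 (38.6%) lie above all other autosomes.

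The chromosome 9 share was not carried by the tag-dense group alone. Of the 107 members on chromosome 9, 77 had an ordinary background index, and on chromosome 15, 52 of 54 did. These 129 peaks were wide, with a median of 219 bp against 193 bp for the 145 such members elsewhere. They held a median of 14 tags against 11 and had a median fold enrichment of 6.6 (6.2 to 7.01) against 9.13 (8.55 to 9.6). Their 10 × −log10 p was lower, with a median of 46.92 against 52.13. Tags, width and fold enrichment thus went in different directions between these chromosomes and the rest.

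The link of tag number to chromosomes 9 and 15 grew with the number, up to 30 tags. They held 8.55% of the distal peaks with 8 tags, 15.8% of those with 10 tags and 22.4% of those with 11 tags, tag-dense members left out. The share was 42.6% at 12 tags, 45.5% at 13 to 14 tags and it reached 36 of 45 peaks at 15 to 19 tags. All 25 peaks with 20 to 30 tags and an ordinary background index were on these 2 chromosomes. Their median fold enrichment was 5.17, compared with 8.37 for peaks of 8 tags. The only member of ordinary index with more tags lay on chromosome 5, with 70 tags at 84.81-fold, and goes against this pattern.

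Along both chromosomes the members were concentrated in certain stretches, with intervals chosen after their values were seen. On chromosome 9, tag-rich peaks made up 70 of the 98 distal peaks before 20 Mb, 1 of 9 from 20 to 30 Mb and 32 of 71 from 30 to 50 Mb. Of the 70, 29 were the tag-dense group at the coordinate start and 41 had an ordinary background index. From 50 to 100 Mb none of 31 was tag-rich, which allows a share of up to 11.03% by the Wilson interval. From 100 to 130 Mb they were 4 of 19, or 21.1% (8.51 to 43.3%). On chromosome 15 they were 15 of 65 before 50 Mb, 36 of 53 from 50 to 70 Mb and 3 of 11 from 70 to 80 Mb. Beyond 80 Mb none of 11 was. The members of ordinary index from 50 to 70 Mb on chromosome 15 were 240.5 bp wide in the median, with 16.5 tags at 6.23-fold.

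The H3K4me3 list gave a measure of these stretches from values that the rule did not use. For each BNC1 peak with at least 3 H3K4me3 peaks within 1 Mb, the median background index of those H3K4me3 peaks was taken. It was 27.6 (27.4 to 28.7) around members of ordinary index on chromosomes 9 and 15, and 17.1 (16.1 to 17.4) around low-tag peaks on the same chromosomes. Elsewhere it was 16.1 (15.6 to 16.9) around members and 15.3 (15.2 to 15.4) around low-tag peaks. The index was above 19.2, the upper quartile of the H3K4me3 list, for 96 of 107 members on chromosomes 9 and 15 and for 46 of 131 low-tag peaks there, against 12.5% of all BNC1 peaks. Members elsewhere passed it in 11 of 118 cases, or 9.32% (5.29 to 15.9%), and low-tag peaks elsewhere in 31 of 1212, or 2.56% (1.81 to 3.61%). Within 10 kb of H3K4me3, on all chromosomes, tag-rich peaks passed it in 31 of 52 cases (59.6%) and peaks of 8 to 10 tags in 5.13%.

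Across the 225 members of ordinary index with such a value, Spearman's rho between the H3K4me3 index around a member and the member's own BNC1 index was 0.68, and across 1343 low-tag peaks it was 0.22. Neighbouring peaks share the same H3K4me3 peaks, so these are descriptions. The index is a rough guide to the background expected by the caller. The control library behind that background is not given in the sources used here, so the indices of both lists may rest on the same control. The part of this index in the tag numbers of the members was not tested.

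**Figure D5:**
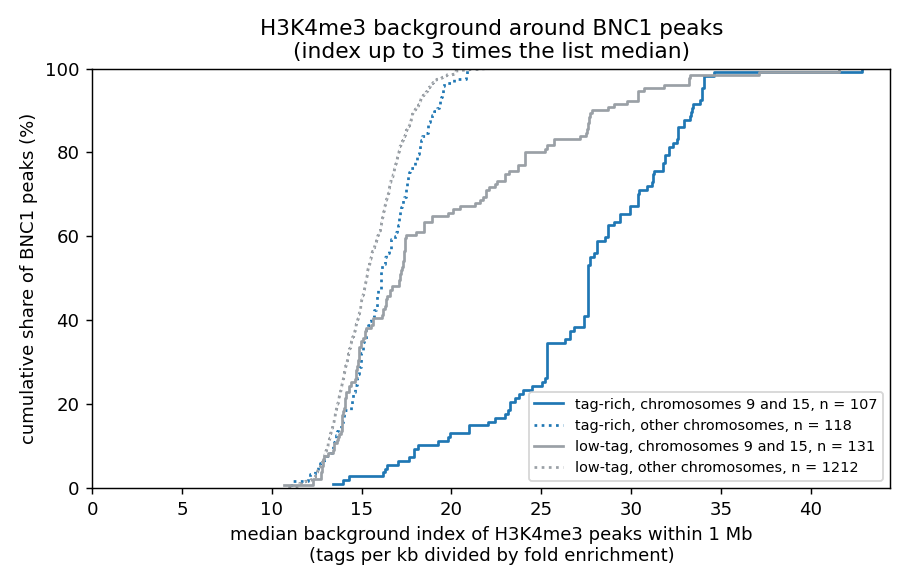
Cumulative share of BNC1 peaks (%) against the median background index of the H3K4me3 peaks within 1 Mb, for members of ordinary background index (blue) and low-tag peaks (grey) on chromosomes 9 and 15 (solid lines) and elsewhere (dotted lines). The solid blue line lies to the right, with a median of 27.6, and the dotted lines have medians of 16.1 and 15.3.

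The position of the summit, the point of highest signal, was measured as its distance from the centre of the peak in percent of width. The median was 9.83% in the members (7.81 to 11.7%) and 16.3% in the low-tag peaks (16.1 to 16.6%), a difference of -6.50 percentage points (-8.53 to -4.62). Summits of members were thus nearer to the centre in the median. The summit comes from the same tags as the rule, so this is a description. At the other extreme, 15 members had a summit more than 30% of the width from the centre, and no low-tag peak did. Peaks under 110 bp formed a special case. All 22 members of that width were tag-dense, and in all 22 the summit was listed at the width divided by 2, rounded down. The same held for 9 of the 20 low-tag peaks of that width. In the members of ordinary index, none of which was under 110 bp, the median was again 9.83%. On chromosomes 9 and 15 it was 11.1% (7.81 to 14.6%) in these members and 15.9% (14.2 to 16.6%) in low-tag peaks, with overlapping intervals. Elsewhere it was 8.49% (6.83 to 10.6%) against 16.3% (16.1 to 16.6%).

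The 145 members of ordinary background index outside chromosomes 9 and 15 were spread over 15 chromosomes. Chromosome 8 had 26 of them, chromosome 1 had 20, chromosomes 3 and 5 had 17 each and chromosome 19 had 16. Their median fold enrichment was above that of the low-tag peaks on the same chromosomes, as given above. It was at least 10 in 52 cases, or 35.9% (28.5 to 43.9%), and in 540 of the 1768 low-tag peaks on the same chromosomes, or 30.5% (28.4 to 32.7%), so at that level the intervals overlapped. Their median background index was 6.80 (6.36 to 7.25), near the 6.46 of those low-tag peaks. They were nearer to H3K4me3, at a median of 76697 bp (55960 to 89494 bp) against 212754 bp (193906 to 232619 bp). Distance was part of the rule, with the same 10 kb limit for both sets, so this is a description. On chromosomes 9 and 15 the direction was the same, with overlapping intervals. The medians there were 164165 bp (113590 to 262372 bp) for members of ordinary index and 288447 bp (195771 to 394946 bp) for low-tag peaks.

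By fold enrichment the leading members came almost wholly from this last set. The first, on chromosome 5 from 138018882 to 138019020, stood apart, with 70 tags in 139 bp at 84.81-fold. Its background index of 5.94 was below the list median, unlike every other member with over 30 tags. Its next BNC1 peak, 2363 bp away, held 9 tags at 9.68-fold. The following members were at 13.39-fold, on chromosome 5 from 108700742 to 108700922 with 13 tags, on chromosome 1 from 153952405 to 153952586 with 12 tags, on chromosome 2 from 39074079 to 39074304 with 13 tags and on chromosome 10 at the position given above. They were 14433 to 220824 bp from H3K4me3. Among the 10 leading members by this measure, 1 was on chromosome 9 (36411057 to 36411236), where 11 tags gave 12.1-fold.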

How the data were processed

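ChIP-seq peak lists of mouse ovary were used, 1 for BNC1 and 1 for H3K4me3, each called by the authors on a single library. The submitters' processing notes name Bowtie2, MACS2 2.1.0 and mm9; the control library, thresholds and treatment of duplicates are not given in the sources used here. The column names are those of MACS version 1, so it is not certain which version computed the fold enrichments and false discovery rates. Per the file headers, tags are the count of tags inside each peak. The deposited strength is −log10 of the p-value times 10, fold enrichment was deposited as a linear ratio over the expected background, and false discovery rates were deposited as percent. No other normalization was applied by the authors as far as the files show.

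Distances were measured between peak edges with pandas 2.3.3 and numpy 2.4.6, intervals used scipy 1.17.1, and matplotlib 3.10.9 drew the figures, all under Python 3.11.15. Shares have 95% Wilson intervals, medians have order-statistic intervals, and differences combine both intervals. No p-value was computed. Distances and intervals were tested on simulated data, with independent values for the intervals. The peaks here are clustered and often tied in value, so how well the intervals cover on them was not tested. The step of fold enrichment was the one whose multiples held most peaks.

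Members, measures and limits were chosen with earlier results of these data known. Peaks named in the text are members ranked highest by tags, fold enrichment, width, isolation, grouping or nearness to the coordinate start, and those at the tag limit. The tag-dense set used a limit of 3 times the list median. The split into chromosomes 9 and 15 and the intervals along them were chosen after their values were seen. BNC1 peaks on other sequences, and gene positions, which were at hand only for another build, were left out.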

Additional observations from a re-analysis of the deposited data

Results flagged for a closer look

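Beside the members, 15 of the 20 BNC1 peaks on sequences other than chromosomes 1 to 19 and X had 11 or more tags. They stood out because they are signal outside the comparisons made above. All 7 mitochondrial peaks were among them, with 59 to 4349 tags each, as were 7 of the 9 peaks on unplaced sequence, which held 1228 tags in all, and the 1 peak on unplaced sequence of chromosome 1, with 384 tags. Of the 20 peaks, 13 had a background index over 3 times the list median.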

How the results depend on the processing

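No paired analysis was possible because the series has 1 library per antibody and no result comes from a test. Of 73 recomputed values, 37 stayed within their interval or, for the number of members, within 1.5 times; 36 moved further and none reversed. The settings without chromosomes 9 and 15 were chosen after seeing the data. The cause of these moves was not tested beyond the peaks each setting removes.

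With the tag minimum at 10 and 15, the number of members was 557 and 125 (329 in the main setting), the difference in median width between members and low-tag peaks 32 and 93 bp (51), in tags per kb 5.92 and 19.8 (8.57), in the share with a neighbour within 100 kb 17.8 and 43.0 percentage points (26.7), in the share on chromosome 9 17.5 and 43.5 points (26.4) and in the share within 3.5 Mb of the coordinate start 6.84 and 26.8 points (11.5); at 15 the summit offset differed by -4.59 points (-6.50), with an interval that included 0. With 10 × −log10 p of at least 50 in place of tags, the differences were 19 bp in width, -4.10 points in summit offset, 14.1 points in neighbours, 10.9 points in chromosome 9 and 7.20 points at coordinate starts.

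Without chromosome 9, tags per kb differed by 6.94, neighbours by 15.6 points and coordinate starts by 4.18 points. Without tag-dense peaks, tags per kb differed by 6.24 and coordinate starts by 1.47 points. Without peaks within 3.5 Mb of the start, chromosome 9 differed by 20.8 points. Merging peaks within 1 kb gave 6.18 points at coordinate starts, and a distance over 50 kb gave 15.6 points.

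Without chromosomes 9 and 15 there were 168 members, and the differences were 42.5 bp in width, 5.61 in tags per kb, 14.6 points in neighbours and 5.61 points at coordinate starts. With tag-dense peaks also left out there were 145 members, and the differences were 42 bp, 4.54, 12.7 points and 3.11 points.

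The depth of the libraries is unknown. Of the 1975 low-tag peaks 1228 held 8 tags, and 99 of the 329 members held exactly 11.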
